A study of Mus musculus with 32 samples.

Results

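The 9 genes described here encode proteins that move salt and water across the alveolar and airway epithelium: 4 aquaporins (Aqp1, Aqp3, Aqp4 and Aqp5), the 3 subunits of the epithelial sodium channel ENaC (Scnn1a, Scnn1b and Scnn1g, the alpha, beta and gamma subunits), the chloride channel Cftr and the sodium pump subunit Atp1b1. They were found by symbol among the 35275 genes of the count table, and all 9 were present and passed the filter on low counts in both experiments. From lungs of C57B/6 mice, poly(A) RNA was sequenced, giving 32 libraries with totals of 13790052 to 24497332 counts. In experiment 1, which had no surgery, males and females were kept in room air (3 libraries per sex) or exposed to cigarette smoke (5 libraries per sex) for 5 months. In experiment 2 every mouse was a female exposed to cigarette smoke after ovariectomy (OVX) or sham surgery. Lungs were taken after 3 months (3 sham, 3 OVX) or 5 months (5 sham, 5 OVX) of exposure. There was thus no air group beside the operated mice, and the labels give no age. Library titles run in separate number series for air and smoke, and for sham and OVX at each time. Any difference in handling between those groups could not be told apart from smoke or surgery. Whether each library is a different animal is not stated, and the p-values therefore measure spread between libraries, some of which may be technical.

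As background, alveolar lining fluid is kept thin by sodium uptake. Sodium enters epithelial cells through ENaC on the side facing the airspace and is pumped out on the other side by the sodium/potassium ATPase, of which Atp1b1 is the beta 1 subunit. Chloride follows, in part through Cftr, and water moves down the osmotic gradient. Aqp5 is the water channel of the thin, gas-exchanging alveolar type 1 cells, Aqp1 that of capillary endothelium, and Aqp3 and Aqp4 those of basal and ciliated cells of the airways.

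On the build GRCm38, in the deposited table's coordinates, Scnn1g (chromosome 7, 121734479 to 121768475) and Scnn1b (chromosome 7, 121865111 to 121918515) are neighbours on the plus strand, 96635 bases apart, while Scnn1a is on chromosome 6 (125320659 to 125344943). Cftr (chromosome 6, 18170687 to 18322768) overlaps the genes Gm15595 and Gm15592, each with a mean of 0.2 counts per library. No other member overlaps a gene of the table. They include Aqp1 (chromosome 6, 55336432 to 55348555), Aqp3 (chromosome 4, 41092722 to 41098183), Aqp5 (chromosome 15, 99590849 to 99594829) and Atp1b1 (chromosome 1, 164437267 to 164458355). Promoters from RefSeq on GRCm38.p6, spanning 250 bases before to 50 after the start, were matched for 7 members. The 250 bases upstream of the start are shown for the neighbours Scnn1g and Scnn1b, of which Scnn1g passed the test in males and Scnn1b did not, and for Cftr and Atp1b1, which passed the test in other comparisons. Of the other called members, no promoter is shown for Scnn1a and Aqp4. Capitals mark the GC box, GGGCGG or its complement CCGCCC.
Scnn1g: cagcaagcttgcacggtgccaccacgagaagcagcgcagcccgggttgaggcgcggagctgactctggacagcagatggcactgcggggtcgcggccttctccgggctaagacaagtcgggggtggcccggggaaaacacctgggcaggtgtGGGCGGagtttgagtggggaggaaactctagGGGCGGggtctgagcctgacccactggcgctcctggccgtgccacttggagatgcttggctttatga
Scnn1b: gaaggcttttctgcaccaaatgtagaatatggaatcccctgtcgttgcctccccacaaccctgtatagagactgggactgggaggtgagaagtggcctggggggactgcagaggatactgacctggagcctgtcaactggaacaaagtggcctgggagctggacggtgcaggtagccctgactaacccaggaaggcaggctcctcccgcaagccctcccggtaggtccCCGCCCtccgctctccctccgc
Cftr: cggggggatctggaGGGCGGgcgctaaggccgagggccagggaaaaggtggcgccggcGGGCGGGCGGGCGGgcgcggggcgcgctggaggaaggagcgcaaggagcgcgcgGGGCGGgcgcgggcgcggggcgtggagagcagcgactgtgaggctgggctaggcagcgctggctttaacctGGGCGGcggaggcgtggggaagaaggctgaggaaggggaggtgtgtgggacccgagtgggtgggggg
Atp1b1: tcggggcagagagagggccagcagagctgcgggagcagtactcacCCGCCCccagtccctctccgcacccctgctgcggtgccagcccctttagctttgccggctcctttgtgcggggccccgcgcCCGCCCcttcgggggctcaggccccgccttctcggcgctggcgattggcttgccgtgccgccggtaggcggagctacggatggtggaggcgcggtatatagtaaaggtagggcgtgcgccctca
The sequences lie at chr7:121734229-121734478 and chr7:121864788-121865037 (Scnn1g and Scnn1b, plus strand), chr6:18170437-18170686 (Cftr, plus strand) and chr1:164458356-164458605 (Atp1b1, minus strand). Cftr held 6 GC boxes, 3 of which overlap their neighbours, while Scnn1g and Atp1b1 held 2 each and Scnn1b 1. Searched on both strands, the GC box was in 7 of the 7 member promoters and in 35.7% of all 32851 promoters of the same length. The GC content of the member promoters lay between 61.67% and 79.67%, and the median of all promoters was 52.67%. The palindromic glucocorticoid response element GNACANNNTGTNC was in 0 of 7 (0.475% of all promoters) and its arm TGTTCT in 0 of 7 (19% of all). The estrogen response element GGTCANNNTGACC was in 0 of 7 (0.07% of all), and its arm GGTCA, which is part of that element, in 3 of 7 (40.5% of all). The TATA box TATAAA was in 1 of 7, Aqp3 (13.6% of all). These are matches of letters in a short window.

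Levels are given first in TPM, transcript abundances that correct for gene length and so can be compared between genes. Aqp1 and Aqp5 were the most abundant members in this lung RNA, with medians over the 32 libraries of 907 and 797 TPM. Scnn1a followed at a median of 376 TPM, Atp1b1 at 336, Scnn1g at 200.5 and Scnn1b at 143. Cftr (median 5.97 TPM), Aqp4 (3.59) and Aqp3 (1.53) were rare. Within a gene, the level of Scnn1b moved least, its highest group mean being 1.13 times its lowest. The same ratio was 1.35 for Aqp1, 1.39 for Aqp5, 1.57 for Atp1b1, 1.72 for Cftr, 1.77 for Scnn1a and 1.82 for Scnn1g. It was 1.98 for Aqp4 and 4.60 for Aqp3, whose counts were as low as 3 in a library.

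The alpha and gamma subunits of ENaC were highest in ovariectomized, smoke-exposed females at 5 months and lowest in males in air, whereas the beta subunit differed little between groups. By group mean, Scnn1a ran from OVX 5 months (491 ± 57.1 TPM, SD, n = 5) through OVX 3 months, male smoke, sham 5 months, sham 3 months, female smoke and female air down to male air (278 ± 15.8, n = 3). Between neighbours in this order, the TPM ranges of the libraries did not overlap in 2 places, female smoke above female air and female air above male air. In counts scaled to library size, female smoke and female air overlapped. Scnn1g ran from OVX 5 months (255 ± 20.5, n = 5) through OVX 3 months, sham 3 months, sham 5 months, male smoke, female smoke and female air to male air (139.6 ± 14.8, n = 3), and all neighbours in that order overlapped. Scnn1b lay between 134 ± 10.6 (female smoke, n = 5) and 151 ± 12.1 (OVX 5 months, n = 5), with all neighbours overlapping. The experiments differ in surgery and may differ in handling, so no test was made across them.

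**Figure D1:**
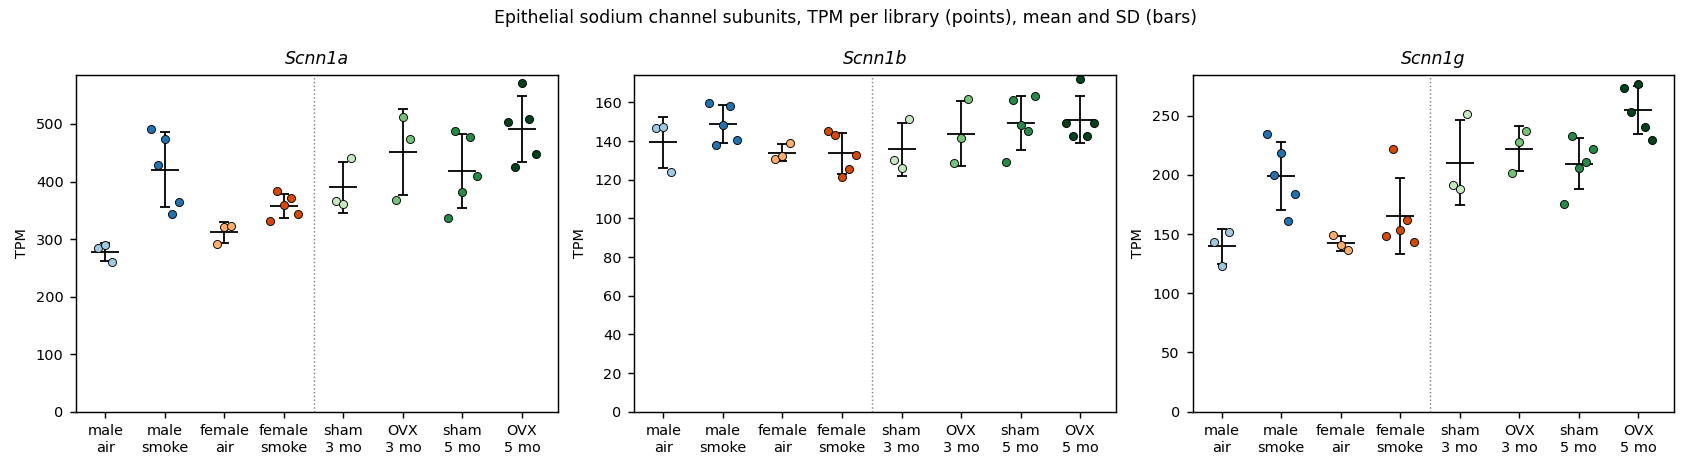
Level in TPM (vertical axis, from 0) of the ENaC subunits Scnn1a, Scnn1b and Scnn1g in each library of the 8 groups (horizontal axis), with points for libraries and bars for group mean and SD; the dotted line separates experiment 1 from experiment 2. All 5 male smoke libraries lie above the 3 male air libraries for Scnn1a and Scnn1g, while the groups overlap for Scnn1b.

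What 5 months of smoke changes was asked within each sex. In males, the alpha and gamma subunits of ENaC rose and the other 7 members did not pass the test. Scnn1a was at 284, 289 and 259.6 TPM in the male air libraries and at 492, 429, 474, 344 and 364 TPM in the male smoke libraries. Scnn1g was at 144, 123 and 152 TPM in air and at 234, 199.8, 218, 161 and 183 TPM in smoke. For both genes each smoke library was above each air library, with male smoke libraries 4 and 5 the lowest of their group. In bulk lung RNA, more cells of a type and more RNA per cell cannot be told apart. Scnn1a, from counts scaled to library size (CPM), was 1.54-fold higher in smoke (log2 fold change 0.62, SE 0.10, adjusted p = 0.000315), and Scnn1g 1.46-fold higher (0.54, SE 0.13, adjusted p = 0.00805; edgeR's quasi-likelihood test with Benjamini-Hochberg adjustment over 16361 genes). These are 2 of 9 members called at an adjusted p under 0.05, all higher, where 10.3% of all genes tested were called and 4.93% were called higher. The median log2 fold change was 0.18 over the members and 0.01 over all genes. The call of Scnn1a held in all 18 alternatives run (adjusted p up to 0.00389), while that of Scnn1g ended without male air library 2 (adjusted p = 0.0632).

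Scnn1b, the neighbour of Scnn1g on chromosome 7, was at 147, 147 and 124 TPM in male air and at 160, 138, 148, 158 and 141 TPM in male smoke. These groups overlapped, and its log2 fold change was 0.13 (SE 0.10, 95% interval −0.08 to 0.34). The ratio of Scnn1a to Scnn1b in TPM lay between 1.94 and 2.10 in the male air libraries and between 2.18 and 3.20 in the male smoke libraries. That of Scnn1g to Scnn1b lay between 0.84 and 1.23 in air and between 1.02 and 1.47 in smoke, with overlap. The ratio of Scnn1a to Scnn1g was 2.01 ± 0.319 (SD, n = 3) in air and 2.11 ± 0.0747 (n = 5) in smoke. The alpha to beta ratio was the one whose air and smoke libraries did not overlap.

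In females, the sodium pump subunit Atp1b1 fell with smoke and no other member passed the test. Atp1b1 was at 496, 433 and 447 TPM in the female air libraries and at 368, 364, 296, 334 and 341 TPM in the female smoke libraries. The highest smoke library lay below the lowest air library. It fell 1.40-fold (log2 fold change −0.48, SE 0.12, adjusted p = 0.0131), 1 of 9 members called where 7.70% of all genes were. That call ended without female air library 1 (adjusted p = 0.0711) or library 3 (adjusted p = 0.0837), and without library 3 the number of all genes called fell from 1259 to 490. In males Atp1b1 was at 336, 393 and 321 TPM in air and 276, 266, 296, 344 and 281 TPM in smoke, groups that overlapped (log2 fold change −0.22, SE 0.12, adjusted p = 0.269).

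The ENaC subunits in females were nearer to their air levels. Scnn1a was at 291, 321 and 323 TPM in air and 331, 384, 360.0, 371 and 343 TPM in smoke, with a log2 fold change of 0.15 (SE 0.10, 95% interval −0.05 to 0.35, adjusted p = 0.41). Every smoke library was above every air library in TPM, while in CPM the groups overlapped. Scnn1g was at 149, 141 and 136 TPM in air and 148, 222, 154, 162 and 143 TPM in smoke, with a log2 fold change of 0.17 (SE 0.12, 95% interval −0.09 to 0.43). Female smoke library 2 stood alone at the high end.

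Whether smoke acted differently in the sexes was tested by the interaction, the log2 fold change in males minus that in females. It was 0.47 for Scnn1a (SE 0.14, unadjusted p = 0.0022, adjusted p = 0.686) and 0.37 for Scnn1g (SE 0.17, unadjusted p = 0.0446, adjusted p = 0.854). For Atp1b1 it was 0.26 (SE 0.17, adjusted p = 0.893). With edgeR's quasi-likelihood test 0 of 9 members were called, where 0.00611% of all genes were. At an unadjusted p under 0.05 there were 2 of 9, beside 5.75% of all genes. DESeq2 and limma also called 0 members. A sex difference in the response of these genes is therefore not shown.

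The direct comparison of males with females called 0 of 9 members in air (0.177% of all genes) and 0 of 9 in smoke (0.189%) with edgeR's test, and 0 in both with DESeq2 and limma. At an unadjusted p under 0.05 there were 2 of 9 in air (9.27% of all genes) and 4 of 9 in smoke (7.74% of all genes). In air, Atp1b1 was lower in all 3 male libraries than in any female library in CPM (401 ± 56.3 against 546 ± 66.1, SD, n = 3 each; log2 fold change −0.44, SE 0.13, adjusted p = 0.243). Cftr had a log2 fold change of −0.37 (SE 0.17, adjusted p = 0.505) in the same comparison. In smoke, Scnn1a was at 708 ± 79.8 CPM in males and 593 ± 33.7 CPM in females (n = 5 each), a log2 fold change of 0.26 (SE 0.08, adjusted p = 0.405). Scnn1g had a log2 fold change of 0.29 (SE 0.11, adjusted p = 0.515) and was called only when female smoke library 2 was left out, and Aqp5 had 0.22 (SE 0.09, adjusted p = 0.608) and Scnn1b 0.19 (SE 0.09, adjusted p = 0.643).

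**Figure D2:**
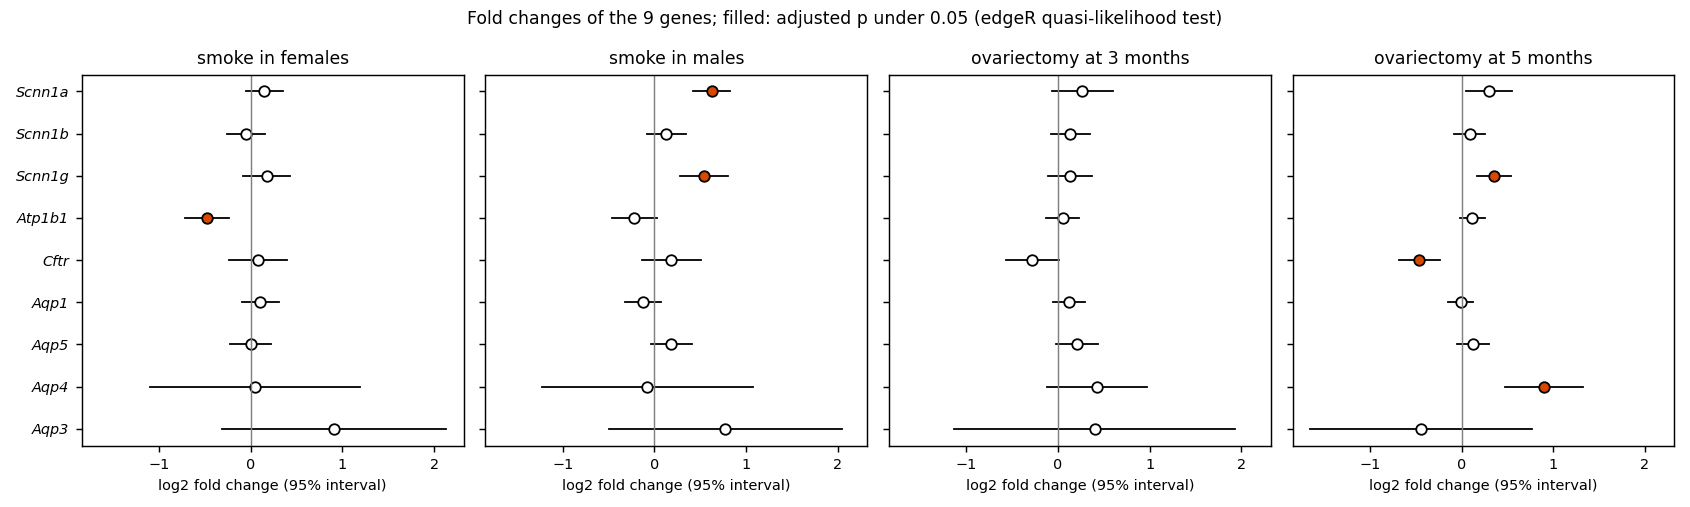
Log2 fold change (horizontal axis) of each member in 4 comparisons, with 95% intervals as lines; filled points have an adjusted p under 0.05. Scnn1a and Scnn1g are filled for smoke in males, Atp1b1 for smoke in females, and Scnn1g, Cftr and Aqp4 for ovariectomy at 5 months, while no point is filled for ovariectomy at 3 months.

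Ovariectomy in smoke-exposed females was followed, at 5 months, by higher Scnn1g and Aqp4 and lower Cftr than in sham-operated females. All 3 were called by edgeR and DESeq2 and by neither limma on TPM (adjusted p = 0.119 for Scnn1g, 0.0799 for Aqp4 and 0.0523 for Cftr). Of the members, 3 of 9 were called, where 1.36% of all 16874 genes were: 2 higher (0.587% of all) and 1 lower (0.776% of all). Scnn1g was at 176, 233, 206, 211 and 222 TPM in the sham libraries and 273, 253, 277, 240.4 and 229 TPM in the OVX libraries. It rose 1.28-fold (log2 fold change 0.35, SE 0.09, adjusted p = 0.0495), with each OVX library above each sham library in CPM but not in TPM. In TPM, OVX library 5 lay below sham library 2. Leaving out 1 library ended the call in 8 of 10 cases, sham libraries 1, 3, 4 and 5 and OVX libraries 1, 2, 3 and 4 (adjusted p up to 0.141). A fit of experiment 2 without its 5 libraries in which Alb, a liver gene, exceeded 100 CPM (sham libraries 1 and 2 and OVX library 5 at 5 months, OVX libraries 2 and 3 at 3 months) gave an adjusted p of 0.055.

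The other ENaC subunits at 5 months were at 336, 488, 381, 477 and 409 TPM (sham) and 503, 425, 570.4, 508 and 447 TPM (OVX) for Scnn1a, and at 129, 161, 148, 145 and 164 TPM (sham) and 149.5, 142, 172, 142 and 149 TPM (OVX) for Scnn1b. Both overlapped between groups. Their log2 fold changes were 0.30 (SE 0.12, 95% interval 0.04 to 0.55, adjusted p = 0.235) and 0.09 (SE 0.08, 95% interval −0.08 to 0.25). The ratio of Scnn1g to Scnn1b lay between 1.36 and 1.45 in the sham and between 1.54 and 1.83 in the OVX libraries, without overlap. That of Scnn1a to Scnn1b overlapped, at 2.80 ± 0.342 and 3.25 ± 0.253 (SD, n = 5 each).

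Cftr, the chloride channel mutated in cystic fibrosis, was lower after ovariectomy. It was at 8.44, 7.46, 10.5, 7.56 and 6.83 TPM in the sham libraries and 5.71, 6.04, 6.06, 4.96 and 5.38 TPM in the OVX libraries at 5 months. Every OVX library lay below every sham library. The gene fell 1.38-fold (log2 fold change −0.46, SE 0.11, adjusted p = 0.037), on 273 to 545 counts per library. Leaving out 1 library ended the call in 7 of 10 cases, sham libraries 1, 3 and 4 and OVX libraries 1, 3, 4 and 5 (adjusted p up to 0.112). It also ended in the fit without the 5 high-Alb libraries of experiment 2 (adjusted p = 0.138, log2 fold change −0.46). At 3 months Cftr was at 6.73, 8.18 and 6.82 TPM in sham and 5.85, 5.60 and 5.87 TPM in OVX libraries, again all below (log2 fold change −0.28, SE 0.14, adjusted p = 0.555). Both times have their own sham and OVX libraries, but they belong to the same experiment and fit, and the difference at 3 months was not called.

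Aqp4, a water channel of airway ciliated cells, encoded on chromosome 18 (15389394 to 15403684), had the largest fold change of the called members. It was at 2.28, 1.95, 2.79, 2.26 and 3.37 TPM in the sham libraries and 4.58, 4.63, 4.54, 5.43 and 3.23 TPM in the OVX libraries at 5 months. In CPM each OVX library was above each sham library, while in TPM OVX library 5 fell below sham library 5. The rise was 1.86-fold (log2 fold change 0.90, SE 0.21, adjusted p = 0.0314), on 76 to 266 counts per library. Leaving out 1 library ended the call in 7 of 10 cases, sham libraries 1, 2, 3 and 4 and OVX libraries 1, 3 and 4 (adjusted p up to 0.091). The summed TPM of 8 ciliated cell markers ran from 106 to 185 in sham and 105 to 185 in OVX, and none of the markers was at 0 in a whole group. Other airway sums had higher medians in OVX, with overlap between the groups. For 9 club cell markers the median was 25298 TPM in sham and 36708 in OVX. For 7 goblet and submucosal gland markers it was 87.2 and 116 TPM. By fold change, however, 0 of these 7 markers were above 0 (median log2 fold change −0.49). Of the club markers 7 of 9 were above 0 (median 0.29). The part of airway cells in the rise of Aqp4 was not tested.

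At 3 months of exposure, edgeR's test of OVX against sham called 0 of 9 members (0.00% of all genes), and DESeq2 and limma called 0 of 9. No member passed an unadjusted p under 0.05, as against 1568 of all genes tested. The fold changes of 8 of the 9 members were above 0, with a median of 0.13, beside a median of 0.00 over all genes. Aqp4 was at 3.42, 3.20 and 2.60 TPM in sham and 3.69, 5.73 and 2.51 TPM in OVX libraries (log2 fold change 0.43, SE 0.26, adjusted p = 0.622). Scnn1g was at 191, 188 and 252 TPM in sham and 201, 228 and 237 TPM in OVX libraries (0.13, SE 0.12, adjusted p = 0.768). The difference between the ovariectomy effects at 5 and 3 months was called for 0 of 9 members (0.00% of all genes), and for 0 with DESeq2 and limma. At an unadjusted p under 0.05 there were 0 of 9, beside 5% of all genes. The difference was 0.47 for Aqp4 (SE 0.33), 0.22 for Scnn1g (SE 0.15) and −0.18 for Cftr (SE 0.18). The effects at the 5 months and 3 months of exposure are therefore not shown to differ.

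Between 5 and 3 months of exposure, averaged over sham and OVX, 0 of 9 members were called with edgeR (0.130% of all genes). DESeq2 and limma also called 0. Beside 13.4% of all genes, 2 of 9 members had an unadjusted p under 0.05. Those were Aqp5, with a log2 fold change of 0.19 (SE 0.07, adjusted p = 0.199), and Scnn1b, with 0.14 (SE 0.07, adjusted p = 0.351). Exposure time and any difference in age or handling cannot be told apart here.

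The water channels of the gas-exchange region showed no called change. Aqp1 was at 800.1, 879 and 995 TPM in male air, 908, 861, 811, 671 and 738 TPM in male smoke, 693, 792 and 766 TPM in female air and 722, 938, 905, 898 and 715 TPM in female smoke. Aqp5 was at 792, 645 and 762 TPM in male air, 956, 834, 857, 656 and 784 TPM in male smoke, 685, 614 and 767 TPM in female air and 682, 743, 727, 716 and 708 TPM in female smoke. For both genes the air and smoke libraries of each sex overlapped. The 95% intervals of the smoke effect ran from −0.09 to 0.31 in females and −0.32 to 0.075 in males for Aqp1, and from −0.22 to 0.22 and −0.04 to 0.41 for Aqp5. By group mean, Aqp1 was highest in sham at 5 months (1010 ± 58.7 TPM, SD, n = 5) and lowest in female air (750.2 ± 51.3, n = 3), and Aqp5 was highest in OVX at 5 months (956 ± 33.3, n = 5) and lowest in female air (689 ± 76.5, n = 3). For both genes the libraries of neighbouring groups in the order overlapped throughout. In experiment 2, Aqp1 ran from 841 to 1105 TPM and Aqp5 from 721 to 1018 TPM. Of the aquaporins with airway background, Aqp3 had 95% intervals of −0.31 to 2.13 (females) and −0.49 to 2.04 (males) for smoke, so that changes of severalfold could not be told from none at 4 to 101 counts per library of those groups. Aqp3 group means ran from 4.44 ± 1.38 TPM in female smoke (n = 5) through male smoke, female air, OVX 3 months, male air, sham 3 months and sham 5 months to 0.966 ± 0.284 in OVX 5 months (n = 5), and its highest library was female smoke library 1 at 6.51 TPM. Aqp4 group means ran from 5.00 ± 2.75 TPM in female smoke (n = 5) through female air, male air, OVX 5 months, male smoke, OVX 3 months and sham 3 months to 2.53 ± 0.559 in sham 5 months (n = 5). All neighbours in both orders overlapped.

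**Figure D3:**
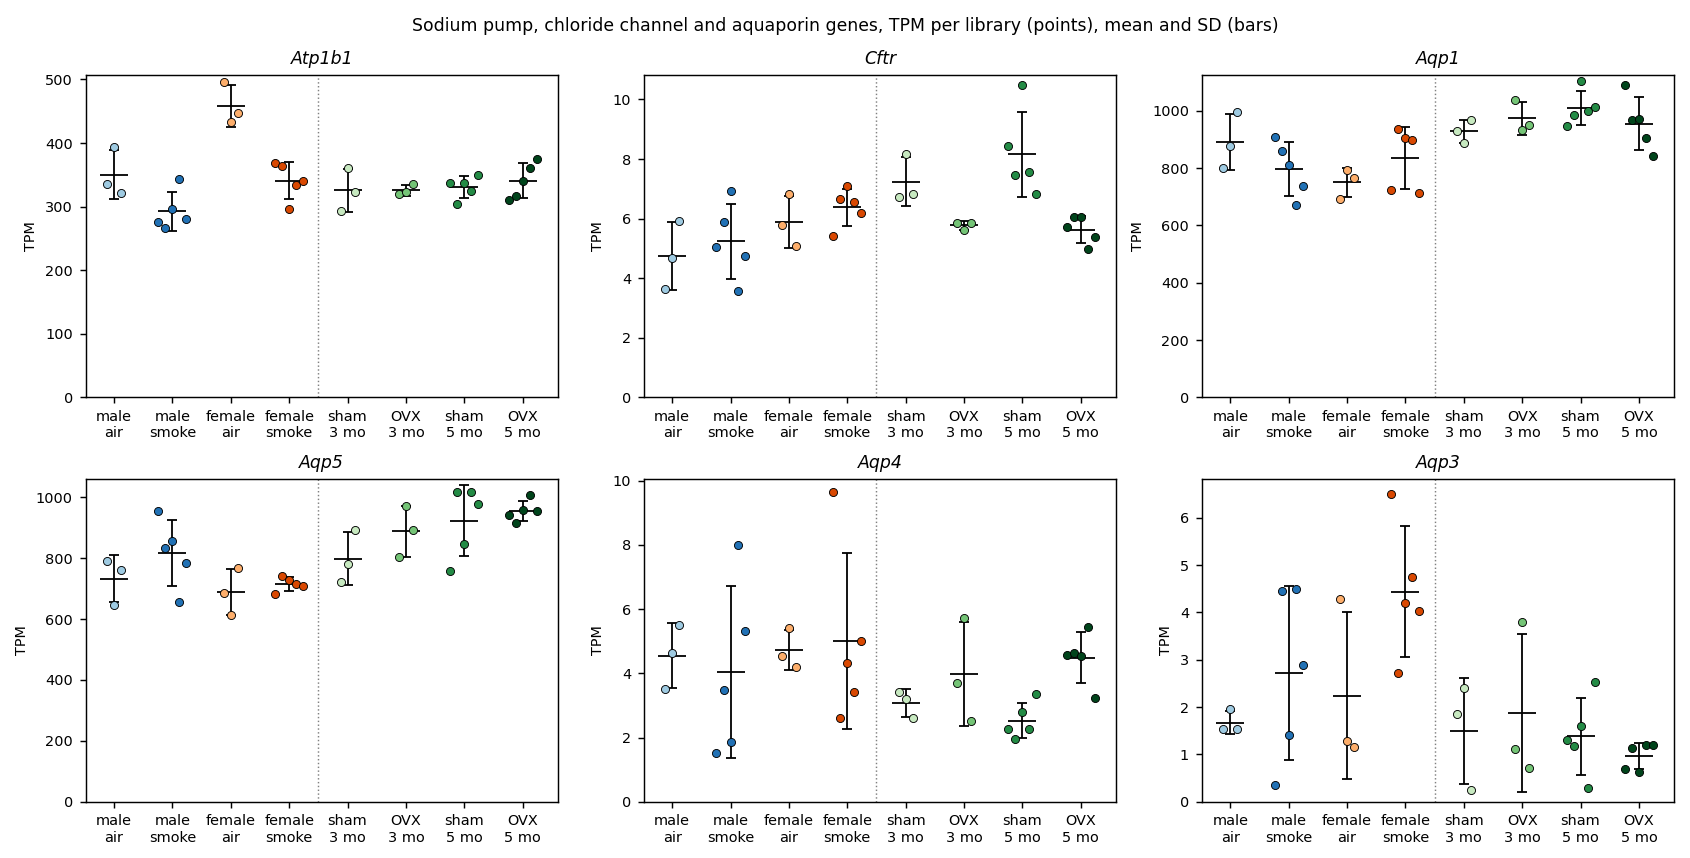
Level in TPM (vertical axis, from 0) of Atp1b1, Cftr, Aqp1, Aqp5, Aqp4 and Aqp3 in each library of the 8 groups, with points for libraries and bars for group mean and SD; the dotted line separates the experiments. Female air stands highest for Atp1b1, and at 5 months the OVX libraries lie below the sham libraries for Cftr, while the air and smoke libraries of each sex overlap for Aqp1 and Aqp5.

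Atp1b1 was highest in female air, at 459 ± 33.1 TPM (SD, n = 3), and that group did not overlap with the next in order, male air, at 350.1 ± 38.3 (n = 3). The 4 groups of experiment 2 lay close together, between 326 and 341 TPM by group mean, and male smoke was lowest at 293 ± 30.5 (n = 5). Ovariectomy had log2 fold changes of 0.05 (SE 0.09) at 3 months and 0.12 (SE 0.07, adjusted p = 0.419) at 5 months for this gene. Cftr by group mean ran from sham 5 months (8.16 ± 1.42 TPM, n = 5) through sham 3 months, female smoke, female air, OVX 3 months, OVX 5 months and male smoke to male air (4.74 ± 1.14, n = 3), with all neighbours overlapping.

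How the members varied together over the 32 libraries is given as a description, in log2 CPM; these libraries share groups, experiments and cell make-up. Scnn1a and Scnn1g had a Pearson correlation of 0.88 (0.68 after group means were removed). Aqp5 had 0.82 with Scnn1a (0.76 within groups) and 0.81 with Scnn1g (0.68). Scnn1b had lower values, 0.54 with Scnn1a (0.58) and 0.45 with Scnn1g (0.48). Aqp3 and Aqp4, both rare, had 0.57 with each other (0.64 within groups) and values below 0 with Aqp5, Scnn1a and Scnn1g. The genes most like each member among 12360 candidates were Lmo7, Emp2 and Ager for Scnn1g (0.92, 0.92 and 0.91) and Osbpl6, Rab12 and Anxa5 for Scnn1a (0.91, 0.89 and 0.89). For Aqp5 they were Gprc5a, Dapk2 and Rnf181 (0.89, 0.88 and 0.87), and for Atp1b1 Por, Fam13a and Slc26a2 (0.86, 0.85 and 0.80). For Aqp4 they were Sntn, Kif21a and Cyp2a5 (all 0.79), for Cftr Lilra5, Kcnn3 and Adam19 (0.79, 0.76 and 0.76), for Aqp1 Ephb1, Fzd7 and Yy1 (all 0.76) and for Scnn1b Slc39a4, Prdx6 and Sod1 (0.75, 0.70 and 0.69). After group means were removed these correlations lay between 0.49 (Ephb1) and 0.83 (Rnf181 and Kif21a).

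Markers of several cell types also changed in these comparisons. With smoke, 739 rose and 520 fell of all 16361 genes in females, and 806 rose and 872 fell in males. With ovariectomy at 5 months, 99 rose of all 16874 genes. Of 11 alveolar type 1 markers, 11 rose with smoke in males (median log2 fold change 0.49) and 8 in females (median 0.54). In males 5 rose without male air library 2. Their summed level went from 7793 to 8661 TPM in male air to 9027 to 12892 in male smoke, from 7079 to 7776 in female air to 8607 to 11315 in female smoke, and from 11741 to 15544 in sham to 14556 to 15848 in OVX at 5 months, where 2 of 11 rose (0 without sham library 1). Over the 32 libraries Scnn1g had a correlation of 0.89 with that sum (0.73 within groups) and Scnn1a 0.79 (0.62), while Scnn1b had 0.18 (0.04). Some other lists also went with Scnn1g and Scnn1a. The alveolar type 2 sum had 0.75 with Scnn1g (0.46 within groups) and 0.63 with Scnn1a (0.35). The ribosomal protein sum had 0.71 with Scnn1g (0.05 within groups) and 0.60 with Scnn1a (−0.03). Values of the ciliated sum were −0.75 with Scnn1g (−0.60 within groups) and −0.60 with Scnn1a (−0.44). The liver and erythroid sums had −0.01 and −0.16 with Scnn1g and 0.00 and −0.10 with Scnn1a. The general capillary sum had −0.65 with Scnn1g, but 0.20 within groups. Of 10 alveolar type 2 markers 1 rose in each sex with smoke, and of 9 general capillary markers 8 fell in each sex (2 in females without female air library 3). No marker of the alveolar type 1, alveolar type 2 and general capillary lists was at 0 in a whole group. Of 8 aerocyte markers, 4 fell in females, and 5 fell and 1 rose in males. All 7 erythroid markers tested rose in females (3 without female air library 3), with a summed level of 6692 to 8234 TPM in female air and 17895 to 42644 in female smoke, while in males 6 of 7 had fold changes above 0 and the sum was 10320 to 35813 TPM in air and 23367 to 33848 in smoke. Of 9 mitochondrially encoded genes 4 rose in each sex (0 without female air library 2 or male air library 1), and of 15 ribosomal protein genes 6 rose in females (0 without female air library 2) and 3 in males (1 without male air library 3). Of 9 liver markers 7 fell in males (0 without male air library 1), with a sum of 3.19 to 618 TPM in male air and 2.37 to 4.34 TPM in male smoke, where 2 of them were at 0 in the whole group. The part of these cell types and gene groups in the results was not tested.

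Airway marker levels differed between libraries and went with Atp1b1, Aqp4 and Aqp3. The summed level of 9 club cell markers ran from 133966 to 167534 TPM in female air, 42502 to 122591 in female smoke, 56855 to 139572 in male air, 27900 to 141734 in male smoke and 23979 to 46588 in experiment 2. Atp1b1 had a correlation of 0.66 with it over the 32 libraries (0.62 within groups). All 5 female smoke libraries were below the 3 female air libraries both in the club sum and in Atp1b1, and the part of the club cells in that result was not tested. The ciliated sum ran from 463 to 523 TPM in female air, 221 to 709.8 in female smoke, 237 to 399 in male air, 130.1 to 607 in male smoke and 105 to 242 in experiment 2. Aqp4 had a correlation of 0.67 with it (0.80 within groups). Its values were alike with the club sum (0.65, 0.75 within groups) and the goblet and submucosal gland sum (0.68, 0.73). With the sum of 6 basal cell markers Aqp4 had 0.42 (0.42). Aqp3 had 0.67 with the ciliated sum (0.61 within groups) and 0.55 with the club sum (0.57). With the basal sum Aqp3 had 0.80 (0.67), and with the goblet and submucosal gland sum 0.77 (0.78). The highest Aqp4 values of all, 9.65 TPM in female smoke library 1 and 7.99 TPM in male smoke library 4, were in the libraries with the highest ciliated sum of their group. Without the 9 libraries over 1.5 times the median ciliated sum, which leaves male air library 3 alone against male smoke libraries 1, 2 and 3 with the spread taken from the other groups, the call of Scnn1a in males held (adjusted p = 5.36e-05) and that of Scnn1g ended (adjusted p = 0.168).

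**Figure D4:**
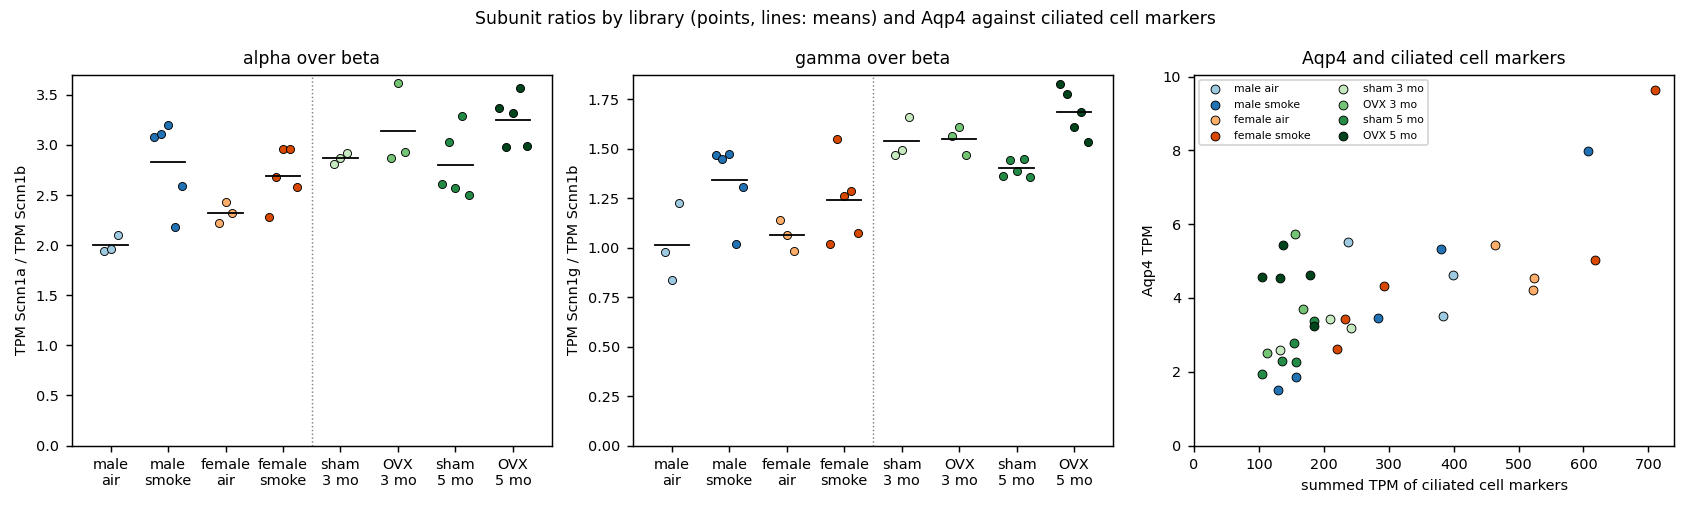
Left and middle, ratio of the TPM of Scnn1a and of Scnn1g to that of Scnn1b (vertical axis, from 0) in each library of the 8 groups, with lines for means; right, Aqp4 in TPM against the summed TPM of 8 ciliated cell markers, 1 point per library. Male smoke lies above male air in the alpha to beta ratio, OVX lies above sham at 5 months in the gamma to beta ratio, and the libraries with the highest ciliated sums of experiment 1 include the highest Aqp4 values.

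A further 77 genes of the same physiology were taken as lists. In females, of 67 tested, 9 rose and 8 fell with smoke (between 3 and 11 rose and between 1 and 8 fell when 1 library was left out, both lowest without female air library 3), where 739 rose and 520 fell of all 16361 genes. In males 9 rose and 7 fell (4 to 8 and 3 to 8, lowest without male air libraries 1 and 2), where 806 rose and 872 fell of all genes. With ovariectomy at 5 months 1 of 69 fell, a share near that over all genes, of which 0.776% fell. In the other 6 comparisons edgeR's test called 0. Between 1 and 10 had an unadjusted p under 0.05, beside 5% to 13.4% of all genes. The alternatives, DESeq2 and limma among them, called up to 2, in males against females in air. The median log2 fold change of the 67 was −0.04 in females and −0.05 in males.

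Some sodium pump genes were lower in smoke. Of 12 pump subunits and FXYD regulators, 4 fell in females and 2 in males, and none rose in either. Of all 16361 genes, 520 fell in females and 872 in males. Atp1b2, the beta 2 subunit, was 1.58-fold lower in females (7.26 against 11.5 CPM, adjusted p = 0.0237) and 2.10-fold lower in males (7.34 against 15.4 CPM, adjusted p = 0.000431). In females Atp1b3, the beta 3 subunit, was also lower by 1.21-fold (adjusted p = 0.0192) and Fxyd1, the pump regulator phospholemman, by 1.38-fold (adjusted p = 0.0176). The call of Atp1b2 in males held without each library in turn. In females the calls named here did not: Atp1b3 depended on air libraries 1 and 3, Atp1b2 on air libraries 2 and 3 and smoke library 1, and Fxyd1 on air library 3 (adjusted p up to 0.138 when 1 was left out).

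Among 15 regulators of ENaC, 1 rose and 2 fell in females and 1 rose and 1 fell in males, beside 7.70% and 10.3% of all genes called in either direction; the male count is near that share. Tsc22d3, a glucocorticoid-induced gene, also in the list of glucocorticoid targets, fell 1.98-fold in females (182 against 360.0 CPM, adjusted p = 0.00944) and 2.29-fold in males (146 against 334 CPM, adjusted p = 0.00203). Its call in females ended without air library 3 (adjusted p = 0.0557). Of the 12 glucocorticoid targets 5 fell in females and 7 in males, where 520 and 872 of all 16361 genes fell. The lowest counts when 1 library was left out were 3 in females (without air library 1) and 4 in males (without air library 2). Tmprss4, a serine protease of the cell surface, rose 1.52-fold in females (16.3 against 10.7 CPM, adjusted p = 0.0226) and 1.46-fold in males (18.2 against 12.4 CPM, adjusted p = 0.0303). Prss8, the channel-activating protease prostasin, fell 1.25-fold in females (84.3 against 105 CPM, adjusted p = 0.0425). The protease calls depended on single libraries. For Tmprss4 these were air 2 and 3 and smoke 3 and 4 in females, and air 1, 2 and 3 and smoke 1 and 2 in males (adjusted p up to 0.13 in each sex when 1 was left out). For Prss8 they were air 1 and 3 and smoke 1, 3, 4 and 5 (adjusted p up to 0.249).

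Among chloride and other anion transporters, of 17 tested with smoke, 5 rose and 1 fell in each sex. Of all 16361 genes, 739 rose and 520 fell in females, and 806 rose and 872 fell in males. Ano1, the calcium-activated chloride channel, was 1.45-fold higher in females (179 against 123 CPM, adjusted p = 0.00302) and 1.61-fold higher in males (187 against 116 CPM, adjusted p = 0.000274). Clic5, an intracellular chloride channel family member that is also in the type 1 cell list, was 1.48-fold higher in females (1541 against 1043 CPM, adjusted p = 0.00188) and 1.53-fold in males (1683 against 1103 CPM, adjusted p = 0.000672). Both genes kept their calls in each sex in all alternatives run. Slc26a9, an anion channel and transporter of airway epithelium, rose 1.38-fold in females (adjusted p = 0.0221) and 1.44-fold in males (adjusted p = 0.00864), and Slc6a14, an amino acid transporter driven by sodium and chloride, 1.32-fold (adjusted p = 0.0221) and 1.38-fold (adjusted p = 0.00687). Lrrc8a, a subunit of the volume-regulated anion channel, fell 1.45-fold in females (19.4 against 28.1 CPM, adjusted p = 0.0188). When 1 library was left out, the female calls ended for Slc26a9 (air 2, air 3, smoke 2; adjusted p up to 0.0999), Slc6a14 (air 2, air 3, smoke 4; up to 0.14) and Lrrc8a (air 3; 0.162). The male calls ended for Slc26a9 (air 1, air 2; up to 0.0619) and Slc6a14 (air 3; 0.0672). Slc26a9 was the list gene called after ovariectomy at 5 months, 1.25-fold lower (68.1 against 85.3 CPM, adjusted p = 0.0482), a call that ended without any of sham libraries 1 to 4 or OVX libraries 2 to 5 (adjusted p up to 0.121).

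Of the 10 tested sodium/proton exchangers and potassium channels, 1 rose and 0 fell in females, and 1 rose and 1 fell in males. Of all genes, 7.70% in females and 10.3% in males were called in either direction. Kcne2, a potassium channel accessory subunit, rose 1.46-fold in females (40.7 against 28.0 CPM, adjusted p = 0.00987) and 1.96-fold in males (41.5 against 21.1 CPM, adjusted p = 6.85e-05). The male call held without each library in turn, and the female call ended without air library 2 (adjusted p = 0.0574). Among 9 WNK kinases and receptors of fluid clearance, 2 rose and 1 fell in females, and 2 rose and 2 fell in males. The kinase genes Wnk1 and Oxsr1 rose in both sexes, Wnk1 by 1.33-fold in females (adjusted p = 0.00888) and 1.30-fold in males (adjusted p = 0.013), and Oxsr1 by 1.27-fold (adjusted p = 0.0134) and 1.21-fold (adjusted p = 0.0388). Wnk2, at 0.437 against 1.87 CPM, fell 4.16-fold in males (adjusted p = 0.0286). Calls of these kinase genes that ended when 1 library was left out were Wnk1 (female air library 3, adjusted p = 0.0701, and male air library 1, 0.0806), Oxsr1 (female air library 3, 0.0913, and every male library except smoke library 2, up to 0.2) and Wnk2 (male air 1, 2 and 3 and male smoke 2 and 3, up to 0.096). Of 8 other aquaporins, 4 passed the low-count filter, and their unadjusted p for smoke ran from 0.303 to 0.722 in females and from 0.336 to 0.917 in males.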

How the data were processed

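The authors deposited whole-number counts per gene (35275 genes) and a normalized table (35186 genes). Its unit was settled from the values as TPM: 100% of the deposited values equal count over gene length scaled to the same total in each library, within 1e-06. Per the labels' protocols, Trizol RNA was poly(A)-selected and libraries made with a NEBNext Ultra 2 kit. The submitters' processing notes name FastQC, GRCm38 and mm10; which aligner and counter were run is not given in the sources used here. All 32 libraries were mapped by label, and 0 columns were left unmapped. No near-copies were found among libraries of a group.

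Counts were fitted per experiment with edgeR 4.0.16 (R 4.3.3; low-count filter, TMM scaling, robust quasi-likelihood test) and called at a Benjamini-Hochberg adjusted p under 0.05, an SE being the log2 fold change over the square root of F. The code was tested on simulated data. Alternatives were median-of-ratios scaling, no filter, a filter of 1 CPM in 3 libraries, 1 fit over all 32 libraries, fits of only the compared groups, a replicate block, DESeq2 1.42.0, limma 3.58.1 on log2(TPM + 1) and leaving out each library. Added after seeing the data were fits without libraries over 100 CPM of Alb or over 1.5 times the median ciliated sum. Correlations used log2 CPM with a prior count of 2.

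The 9 genes, the lists and the tests were chosen with earlier results of these data known. Named are all 9 genes, at most 4 called genes per list and comparison with the smallest p (ties kept), and the 3 genes most alike to each member whose mean log2 CPM reached 1, which that of Aqp3 did not. Drd1 was not found among the symbols. The response element of the glucocorticoid receptor was searched as planned, and the other motifs were chosen later. Some called genes of the lists are counted but not reported here by name.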

Additional observations from a re-analysis of the deposited data

Results flagged for a closer look

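In 36 combinations of a gene and a group of 5 libraries, 2 had a library far from the rest by Dixon's test (gap to the nearest library over the range of the group, 95% critical value 0.71), a test that flags about 1 in 20 groups by chance. Scnn1b was at 172 TPM in OVX library 3 at 5 months, with the nearest library at 149.5 (149.52) and a gap over range of 0.759. Scnn1g was at 222 TPM in female smoke library 2, with the nearest library at 162 and a gap over range of 0.763. Without that female smoke library, Scnn1g was called higher in males than in females in smoke.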

How the results depend on the processing

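None of the called members changed sign under any alternative run. With smoke in females 1 of 9 members was called and 0 to 1 when 1 library was left out. With smoke in males 2 were called, 1 to 2 when 1 library was left out and 1 without the libraries with a high ciliated sum. For males against females in smoke the count went from 0 to between 0 and 1. For ovariectomy at 5 months 3 were called, 1 with the replicate block (Cftr), 1 with all 32 libraries in 1 fit (Cftr), 0 with limma on log2(TPM + 1), 1 without the high-Alb libraries (Aqp4), and 0 to 2 when 1 library was left out. The causes were not tested. The ratio of the highest to the lowest group mean of Aqp1 was 1.35 in TPM and 1.22 in CPM. Leaving out all high-ciliated libraries removes every female air library, so it gave no value for smoke in females. Same-numbered libraries did not deviate together (correlations from −0.27 to 0.19 in experiment 1 and −0.41 to 0.20 in experiment 2), so the numbers were not taken as pairs, and the block changed no other count of members.

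Over all genes, the number called under the alternatives that keep every library or leave out several moved from 1259 to between 789 (limma) and 1667 (DESeq2) for smoke in females, from 1678 to between 992 and 2047 in males, from 29 to between 15 and 133 for sex in air, from 31 to between 22 and 63 for sex in smoke, from 1 to between 0 and 17 for the interaction, from 230 to between 111 and 602 for ovariectomy at 5 months, from 0 to up to 93 at 3 months, from 22 to between 11 and 482 for exposure time and from 0 to up to 23 for ovariectomy by time. When 1 library was left out, the ranges in the same order were 490 (without female air library 3) to 1151, 962 (without male air library 3) to 1694, 10 (without female air library 2) to 42, 20 (without female smoke library 1) to 34, 0 to 4, 39 (without sham library 1) to 259, 0 to 6, 2 (without OVX library 1 at 3 months) to 125 and 0 to 0. Aqp3, with 3 to 101 counts per library, and Aqp4, with 48 to 431, had wide intervals for smoke in both sexes.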
